A study of Mus musculus with 12 samples.

Results

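The collagen genes described here are the 44 protein-coding mouse genes whose GENCODE M21 symbol has the form Col, a type number, a and a chain number, out of 52654 genes complete in all 12 count files. RNA was sequenced from MC3T3-E1 subclone 14 cells, a preosteoblast line from mouse calvaria, with 3 libraries in each of 4 groups. The co-cultured cells, on titanium with nanotopography or on control titanium, shared medium for the last 2 days with RAW 264.7 macrophage-line cells that had been treated with 50 ng/mL of RANKL, the cytokine that drives osteoclast formation. The isolated cells, on titanium with nanotopography or on control titanium, were grown without RAW 264.7 cells. In every group the osteoblasts were in medium with 5 µg/mL ascorbic acid and 7 mM β-glycerophosphate, the acid being a cofactor of the enzymes that hydroxylate procollagen, and RNA was taken on day 7. The RAW 264.7 cells sat on inserts with 0.4 µm pores. RANKL, the insert and the osteoclasts came together, so their parts cannot be told apart, and all groups come from 1 subclone of the line.

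Collagens are secreted proteins built as triple helices, in which glycine heads each triplet of residues. Fibril-forming types make the cables of bone, skin and cartilage, and type I is the main protein of the matrix that osteoblasts lay down and mineralize. Other classes coat fibrils, form the sheets of basement membranes or beaded and hexagonal networks, or stay in the cell membrane. Before secretion the chains are hydroxylated and folded in the endoplasmic reticulum, and after it their ends are trimmed and the fibrils are cross-linked.

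The repeat is written in the coding DNA as codons that start with GG. The longest uninterrupted run of triplets headed by a glycine codon held 338 triplets in Col1a1, 339 in Col2a1, 344 in Col3a1, 216 in Col24a1, 217 in Col27a1 and 30 in Col15a1 and Col18a1. Median GC content of the longest transcript was 56.83% for the 28 collagen genes tested, against 48.71% for all protein-coding genes, and Col8a1, Col11a1 and Col12a1, 3 of the 28, lay below the median of all. Base composition is given here because differences between these libraries followed GC content. The 3 windows printed here, each 30 codons from the middle of that run in the GENCODE M21 transcript, were chosen because Col1a1 and Col2a1 are chains that were lower in co-culture on nanotopography, while Col8a1 was higher there. Capitals mark the glycine codon of each triplet.
Col1a1 codons 675 to 704: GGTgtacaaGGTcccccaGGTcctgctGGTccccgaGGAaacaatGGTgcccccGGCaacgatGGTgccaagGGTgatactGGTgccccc
Col2a1 codons 708 to 737: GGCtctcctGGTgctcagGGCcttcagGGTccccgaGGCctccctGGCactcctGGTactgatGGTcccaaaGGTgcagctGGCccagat
Col8a1 codons 442 to 471: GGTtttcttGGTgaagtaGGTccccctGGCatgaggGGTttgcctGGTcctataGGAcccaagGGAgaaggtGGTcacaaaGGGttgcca
The windows of Col1a1 and Col2a1 had 64.44% and 65.56% GC, and that of Col8a1 had 55.56%, while the whole runs lay closer together, at 65.15%, 65.75% and 62.3%. Over the whole longest transcript Col8a1 had the lowest GC content of the 28 genes, 46.75%, and Col8a2 had 59.14%.

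Libraries held between 5866842 and 9207831 counts over the genes used. The first principal component of all tested genes, 55.4% of the variance, placed the co-cultured libraries on nanotopography at -74.06 to -44.54 and the isolated libraries on nanotopography at 26.06 to 54.28, with the 6 control-titanium libraries between -11.59 and 25.83. Mitochondrial rRNA genes took 11.6 ± 3.75% of counts in co-cultured cells on nanotopography, 6.49 ± 0.30% in co-cultured cells on control titanium, 5.14 ± 1.05% in isolated cells on nanotopography and 8.17 ± 1.55% in isolated cells on control titanium (SD, n = 3 each). In the same order of groups, rRNA-like genes took 0.64 ± 0.25%, 1.84 ± 0.29%, 6.27 ± 2.38% and 3.81 ± 1.44% (SD, n = 3 each). The part of these shares in the fold changes was not tested. All 10 osteoblast markers passed the low-count filter. In co-culture against isolated cells 5 were lower on control titanium, and 1 was higher and 4 lower on nanotopography. Of all genes 8.76% and 30.4% were lower in these comparisons. On nanotopography against control titanium 5 were lower in co-culture and 1 in isolated cells, where 23.4% and 5.62% of all genes were. Of 18 macrophage and osteoclast markers 7 passed the filter. Of these 7, 4 were higher and 1 lower in co-culture than in isolated cells on nanotopography, with a median log2 fold change of 1.71, where 28.7% of all genes were higher and 30.4% lower. Between surfaces in co-culture 4 were higher on nanotopography, where 18.6% of all genes were. In the other 2 comparisons of groups 0 were called, where 19.8% of all genes were for co-culture on control titanium and 10.1% for the surface in isolated cells. The summed level of all 18 was 183 to 259 CPM in co-cultured cells on nanotopography, 193 to 207 CPM in co-cultured cells on control titanium, 183 to 203 CPM in isolated cells on nanotopography and 193 to 202 CPM in isolated cells on control titanium. Most of that sum was Ctsk, at 163.6 to 184.5 CPM on average in each group. Ptprc, the pan-leukocyte CD45 gene, had 44 counts in co-culture on nanotopography, 2 on control titanium with co-culture and 0 in both isolated groups, while Calcr was at 0 throughout, and the part of such transcripts in the collagen results was not tested.

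Collagen genes took a smaller share of the reads in co-culture on nanotopography than in the other groups. Their share of counts was 5.20% to 6.73% per library in co-cultured cells on nanotopography, 8.64% to 10.04% in co-cultured cells on control titanium, 9.75% to 10.2% in isolated cells on nanotopography and 9.22% to 10.3% in isolated cells on control titanium. The 3 libraries of co-culture on nanotopography lay below the other 9. Without Col1a1 and Col1a2 the shares were 2.02 ± 0.22%, 2.29 ± 0.16%, 2.38 ± 0.14% and 2.14 ± 0.11% in the same order of groups (SD, n = 3 each). By this measure co-culture on nanotopography, at 1.77% to 2.15%, overlapped isolated cells on control titanium, at 2.01% to 2.23%. It lay below co-culture on control titanium, from 2.18%, and isolated cells on nanotopography, from 2.25%. In bulk RNA, fewer cells that make collagen and less collagen RNA per cell cannot be told apart. These shares were not GC-adjusted, and the part of GC content in them was not tested.

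Per unit of exon length, fibril-forming genes made up 86.1 ± 0.43% of collagen transcripts in co-cultured cells on nanotopography, 89.6 ± 0.38% in co-cultured cells on control titanium, 90.5 ± 0.056% in isolated cells on nanotopography and 92.1 ± 0.46% in isolated cells on control titanium (SD, n = 3 each). In TPM, counts divided by exon length and scaled to the same sum in every library, Col1a1 came first at a mean of 18740 TPM over the 12 libraries, and Col1a2 followed at 7276 TPM, or at 14040 TPM by the length of its longest transcript. Col5a1, Col5a2, Col6a1, Col3a1, Col12a1 and Col6a3 came next with group means between 430.7 and 1783 TPM, and their order changed from group to group. The order also rests on the length used: over all libraries Col5a1, Col5a2 and Col3a1 averaged 1361, 1351 and 934.5 TPM by exon length, and 1140, 1625 and 1370 TPM by the longest transcript. By exon length these averages of Col5a1 and Col5a2 lay close together, as did those of Col12a1 at 632 TPM and Col6a3 at 624 TPM. Within groups they lay further apart. In co-culture on nanotopography Col5a1 and Col5a2 had 974.5 and 1324 TPM, and Col12a1 and Col6a3 had 953.6 and 652.7 TPM. Of the 44 genes, 28 passed the low-count filter and 16 did not. Those 16 were Col9a1, Col9a2, Col9a3, Col14a1, Col19a1 and Col20a1 of the fibril-associated class, Col4a3 and Col4a4, Col6a4, Col6a5 and Col6a6, Col10a1, the transmembrane Col23a1 and Col25a1, and Col26a1 and Col28a1. Col25a1 and Col4a3 had 0 counts in all 12 libraries, which allows up to 0.0351 CPM over their 85418440 counts, counting error only. Among the rest Col6a5 had 37 and 23 counts in co-culture on nanotopography and on control titanium, against 5 and 4 in isolated cells on the same surfaces.

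**Figure D1:**
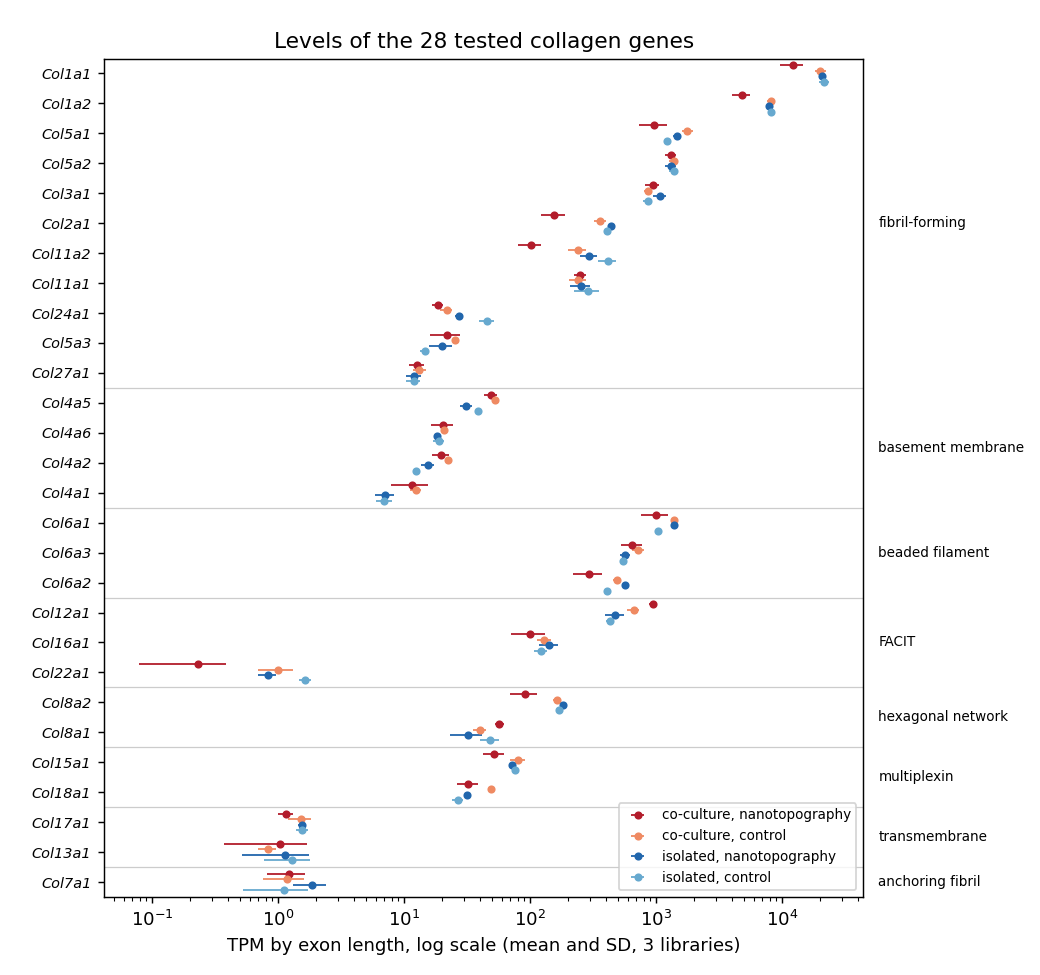
Levels of the 28 tested collagen genes by class, as TPM by exon length on a log axis; points are group means and bars SDs over 3 libraries, with co-culture on nanotopography, co-culture on control titanium, isolated cells on nanotopography and isolated cells on control titanium drawn from top to bottom in each row, and FACIT standing for the fibril-associated class. Col1a1 and Col1a2 stand highest, and Col22a1 in co-culture on nanotopography is the lowest mean, 0.233 TPM.

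The first comparison set co-cultured against isolated osteoblasts on control titanium. There 9 of the 28 collagen genes were called at an edgeR quasi-likelihood adjusted p below 0.05 (Benjamini-Hochberg over all 13340 genes tested), against 19.8% of all genes tested. These were 7 higher and 2 lower, where 11.0% of all genes were higher and 8.76% lower, and in 14 of the 28 the 3 co-cultured and 3 isolated libraries did not overlap, as in 36.1% of all genes. Basement-membrane Col4a1, Col4a2 and Col4a5, fibril-forming Col5a1 and Col5a3, fibril-associated Col12a1 and multiplexin Col18a1 rose, by 0.36 to 0.79 on the log2 scale. Fibril-forming Col11a2 and Col24a1 fell, by 0.87 and 1.15. Both chains of type I collagen missed the threshold, with log2 fold changes of -0.18 ± 0.11 for Col1a1 and -0.09 ± 0.10 for Col1a2 (SE; edgeR adjusted p = 0.266 and 0.556). The median over the 28 genes was -0.04, beside -0.02 over all genes tested. With upper-quartile scaling in place of TMM, 7 collagen genes were higher and 4 lower, and over all genes the split turned to 1168 higher and 1475 lower, against 1468 and 1169 with TMM.

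On nanotopography the same comparison gave a set that matched this one in part. In co-culture 13 collagen genes were lower and 4 higher than in isolated cells, 17 of 28, where 59.1% of all genes tested were called, 30.4% lower and 28.7% higher. The libraries did not overlap for 19 of the 28, and for 64.4% of all genes. The lower ones were Col1a1, Col1a2, Col2a1, Col3a1, Col5a1, Col11a2, Col24a1, Col6a1, Col6a2, Col16a1, Col22a1, Col8a2 and Col15a1, and the higher ones Col12a1, Col4a1, Col4a5 and Col8a1. The median was -0.44 on the log2 scale for the collagen genes and 0.00 for all genes tested. No library is shared between the comparisons on the 2 surfaces: Col12a1, Col4a1 and Col4a5 were higher and Col11a2 and Col24a1 lower in both, 5 of the 9 and 5 of the 17 called, and Col5a1 was called in opposite directions. The same overlap over all genes was not counted.

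Across all 13340 genes the difference between co-culture and isolated cells on nanotopography followed the GC content of the transcript, with a Spearman correlation of -0.73 across genes, against 0.16 on control titanium. These genes come from the same libraries and are not independent replicates. Above 60% GC the median log2 fold change on nanotopography was -1.34 over all genes and -0.66 over the 7 collagen genes in that range. In the range of 55 to 60% GC the medians were -0.83 for 2182 genes and -0.65 for 11 collagen genes. Values marked GC-adjusted come from the same test after removal, library by library, of the trends with base composition and transcript length. On nanotopography 20 collagen genes were then called, 11 higher and 9 lower, with a median of 0.07, where 39.6% of all genes were called, 18.9% higher and 20.6% lower. Of the 17 genes called before, 11 kept their direction, Col1a1, Col3a1, Col5a1, Col6a1 and Col15a1 were no longer called, and Col16a1 turned to higher. Among all genes 3565 of the 7890 called before kept their direction and 317 were called in the opposite one. On control titanium all 9 genes called before kept their direction among 15 called, where 27.0% of all genes were called. Among all genes 2523 of the 2637 called there before kept theirs. When GC-adjusted on both surfaces, 7 collagen genes were called higher on both and 5 lower on both, and Col8a1 was called in opposite directions. These were among 15 called on control titanium and 20 on nanotopography.

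**Figure D2:**
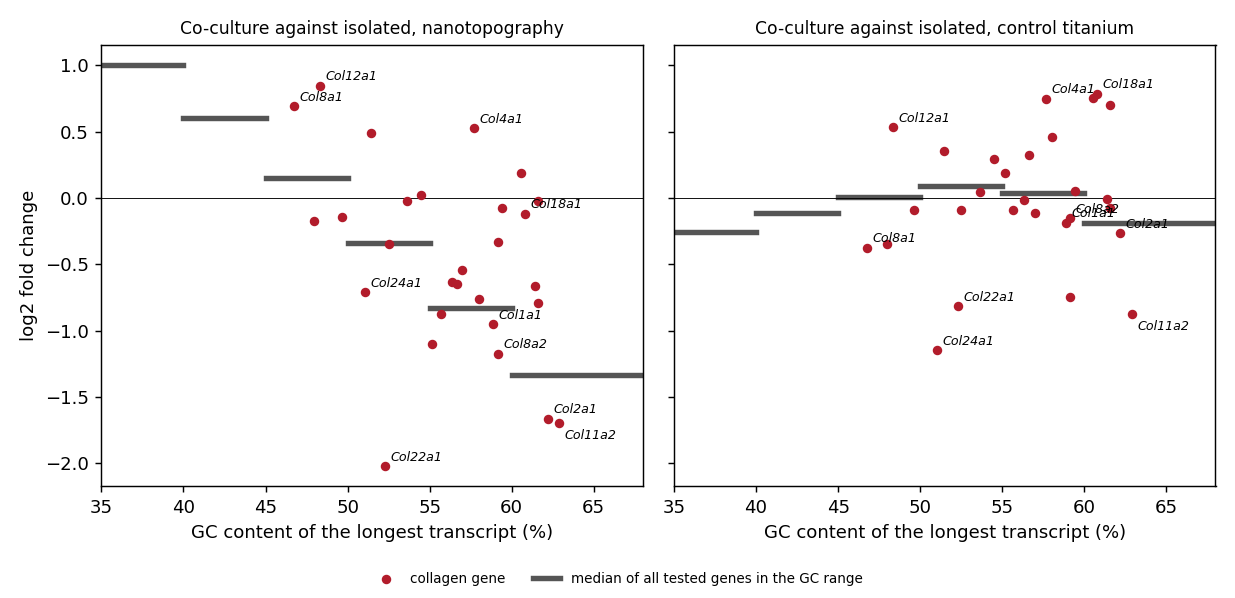
Log2 fold change of co-culture over isolated cells against GC content of the longest transcript, for the 28 collagen genes (red points) and as medians of all tested genes by GC range (grey bars), on nanotopography (left) and on control titanium (right). On nanotopography the medians go down from 1.01 under 40% GC to -1.34 above 60% GC, and Col12a1, Col8a1 and Col4a1 lie above zero.

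The surface was compared next, in co-culture and in isolated cells. In co-culture 11 collagen genes were lower and 2, Col12a1 and Col8a1, higher on nanotopography than on control titanium, 13 of 28 where 42.0% of all genes were called, 23.4% lower and 18.6% higher. The libraries did not overlap for 16 of the 28, and for 53.4% of all genes. The call of Col8a1 was lost without co-culture control replicate 2, co-culture control replicate 3 or co-culture nanotopography replicate 1 (edgeR adjusted p up to 0.0842). GC-adjusted, 10 were called, where 17.7% of all genes were, and 6 of these kept the direction of the unadjusted call: Col12a1 higher, and Col1a2, Col2a1, Col5a1, Col6a2 and Col22a1 lower. Among all genes 1543 of the 5602 called before kept their direction and 47 were called in the opposite one. In isolated cells Col3a1, Col4a2, Col5a3, Col6a1 and Col6a2 were higher and Col24a1 and Col8a1 lower on nanotopography, 7 of 28 where 10.1% of all genes were called, 4.48% higher and 5.62% lower. The libraries did not overlap for 11 of the 28, and for 29.9% of all genes. GC-adjusted, 7 were again called, where 5.67% of all genes were, and of the first 7 Col6a1, Col6a2 and Col24a1 were called in the same direction when GC-adjusted. Among all genes 469 of the 1347 called before were. The count of 7 collagen genes called in isolated cells before GC adjustment rested on single libraries. It was 0 without isolated control replicate 1, isolated control replicate 2 or isolated nanotopography replicate 3, and 1 without isolated nanotopography replicate 1, by the same edgeR test, where 13, 12, 12 and 14 collagen genes had an unadjusted p below 0.05. Calls were lost over all genes too: these fits called 2, 46, 3 and 67 genes in the same order, against 1347 with all libraries. The collagen count was 4 without co-culture control replicate 2, co-culture control replicate 3 or co-culture nanotopography replicate 3, where 944, 1163 and 856 of all genes were called. DESeq2 and limma-voom on all libraries called 9 and 7 collagen genes. Before GC adjustment Col6a1, Col6a2 and Col8a1 were called in opposite directions in the 2 cultures, which share no library. Their calls in isolated cells were lost in 4, 4 and 7 of the 12 fits that left out 1 library. GC-adjusted, Col6a2 alone was called in opposite directions, while Col12a1 was called higher and Col22a1 lower in both cultures. The matching overlap over all genes was not counted.

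**Figure D3:**
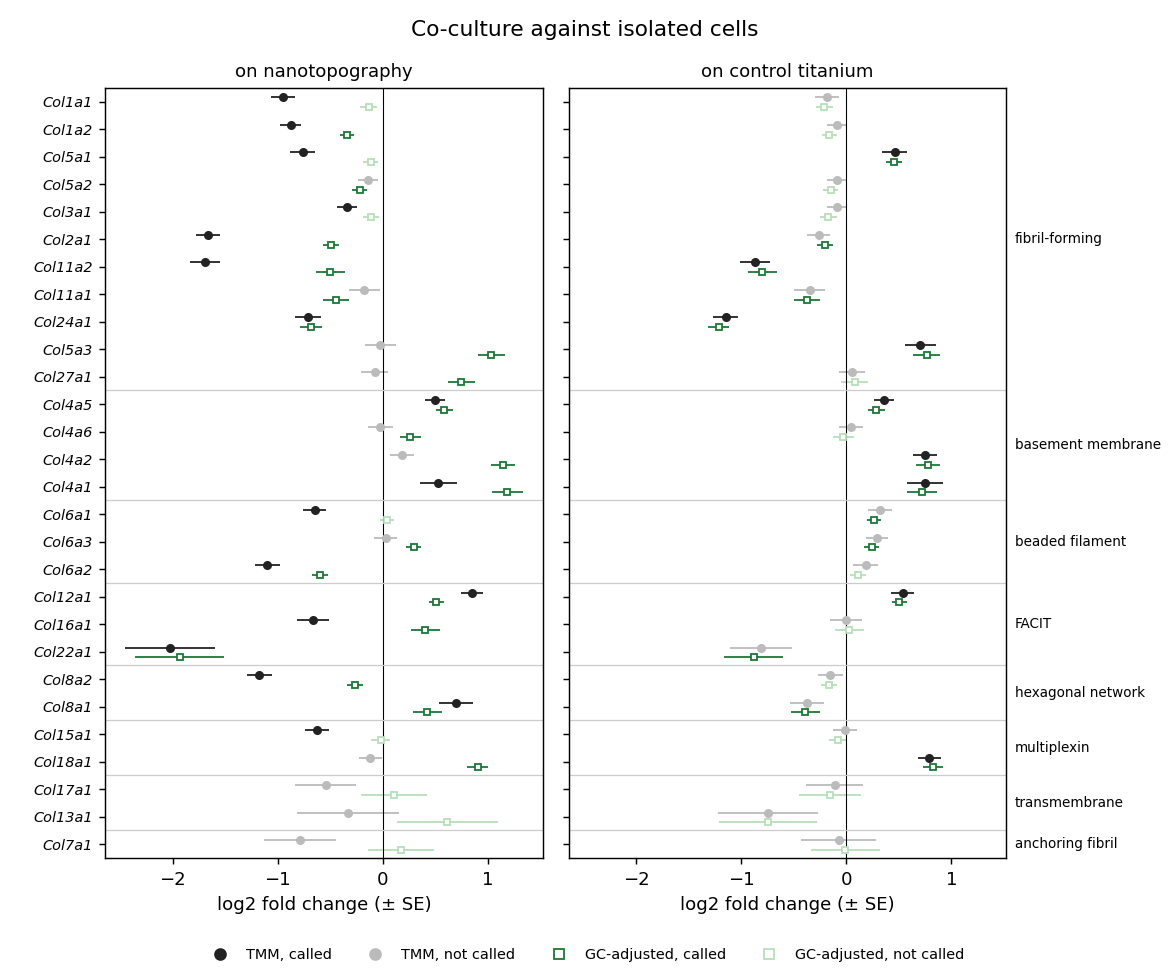
Log2 fold change of co-culture over isolated cells for each tested collagen gene, on nanotopography (left) and on control titanium (right), with SE bars; circles are TMM-scaled values, squares GC-adjusted ones, and strong colours mark an adjusted p below 0.05. On nanotopography Col1a1 moves to -0.14 when GC-adjusted, against -0.95, while Col24a1, Col22a1 and Col4a5 hardly move.

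Whether the effect of co-culture differed between the surfaces was tested as an interaction, the log2 fold change on nanotopography minus that on control titanium. It was called for 15 collagen genes, 13 of them with a more negative co-culture effect on nanotopography and 2, Col8a1 and Col24a1, with a more positive one, where 47.9% of all genes were called, 25.4% negative and 22.5% positive. GC-adjusted, 5 were called, where 20.9% of all genes were, 8.11% positive and 12.8% negative: Col8a1 at 0.81, Col24a1 at 0.53 and Col27a1 at 0.67 with a more positive effect, and Col5a1 at -0.57 and Col6a2 at -0.71 with a more negative one (edgeR adjusted p = 0.00831, 0.0123, 0.0128, 0.000777 and 0.000134). Col27a1 was not among the 15 and had a value of -0.13 before GC adjustment (edgeR adjusted p = 0.558).

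Type I collagen, whose chains are encoded by Col1a1 (chr11:94936224-94953042, GRCm38) and Col1a2 (chr6:4504814-4541544), was lower in co-culture on nanotopography than in every other group. Col1a1 had 20160, 23810 and 26170 CPM in co-culture on nanotopography and 35950, 37560 and 44180 CPM in co-culture on control titanium. Isolated cells had 44900, 44520 and 46010 CPM on nanotopography and 48520, 44700 and 40560 CPM on control titanium. The 3 libraries of co-culture on nanotopography lay below all 9 others, and isolated cells on control titanium overlapped the 2 remaining groups, which did not overlap each other. Its difference between co-culture and isolated cells on nanotopography was -0.95 ± 0.11 on the log2 scale (SE, edgeR adjusted p = 2.82e-06), and -0.14 when GC-adjusted (edgeR adjusted p = 0.188). Col1a2 had 16020, 18410 and 18390 CPM in co-culture on nanotopography and 27870, 29370 and 32800 CPM in co-culture on control titanium. Isolated cells had 32560, 31460 and 32990 CPM of it on nanotopography and 32630, 32640 and 30460 CPM on control titanium. The 3 libraries of co-culture on nanotopography again lay below all 9 others, and the other 3 groups overlapped. On nanotopography it fell by 0.88 ± 0.10 on the log2 scale in co-culture (SE, edgeR adjusted p = 1.22e-06), and GC-adjusted it still fell, by 0.34 (edgeR adjusted p = 0.000456). The ratio of Col1a1 to Col1a2 per exon length was 2.51 ± 0.16 in co-cultured cells on nanotopography, 2.47 ± 0.069 in co-cultured cells on control titanium, 2.64 ± 0.034 in isolated cells on nanotopography and 2.64 ± 0.15 in isolated cells on control titanium (SD, n = 3 each). It moved to 1.20 ± 0.078, 1.18 ± 0.033, 1.26 ± 0.016 and 1.26 ± 0.073 in the same order with the length of the longest transcript, since the exons of Col1a2 cover 12426 bases and its longest transcript 5348.

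Type V collagen starts type I fibrils and limits their width, and its chains differed among themselves. Col5a1 (chr2:27886425-28039514) had 1940, 2592 and 2711 CPM in co-culture on nanotopography and 4049, 4320 and 5038 CPM in co-culture on control titanium. Isolated cells had 4053, 4132 and 4102 CPM on nanotopography and 3354, 3298 and 3081 CPM on control titanium. In co-culture Col5a1 was therefore lower than in isolated cells on nanotopography and higher on control titanium, with no overlap on either surface. Its log2 fold change was -0.76 ± 0.12 on nanotopography and 0.46 ± 0.12 on control titanium (SE, edgeR adjusted p = 3.94e-05 and 0.0113), a difference of -1.22 ± 0.17 (edgeR adjusted p = 8.28e-05). GC-adjusted, the values were -0.12 (edgeR adjusted p = 0.225) and 0.45 (edgeR adjusted p = 7.8e-05). Its partner Col5a2 had 3704, 3773 and 3748 CPM in co-culture on nanotopography and 3759, 3679 and 4311 CPM in co-culture on control titanium. Isolated cells had 3917, 4328 and 4140 CPM on nanotopography and 4435, 4257 and 3815 CPM on control titanium, and no comparison called it before GC adjustment. GC-adjusted, Col5a2 was called lower in co-culture on nanotopography, at -0.22 (edgeR adjusted p = 0.0195), where Col5a1 was not called. Without GC adjustment, the ratio of Col5a1 to Col5a2 per exon length was 0.728 ± 0.12 in co-cultured cells on nanotopography, 1.29 ± 0.062 in co-cultured cells on control titanium, 1.12 ± 0.045 in isolated cells on nanotopography and 0.881 ± 0.029 in isolated cells on control titanium (SD, n = 3 each). By the longest transcripts it was 0.508 ± 0.084, 0.898 ± 0.043, 0.783 ± 0.032 and 0.614 ± 0.021 in the same order (SD). The GC content of the 2 longest transcripts was 58.02% for Col5a1 and 49.65% for Col5a2, and its part in the ratio was not tested. Col5a3, a minor chain of the same type, had 34.4, 48.2 and 48.9 CPM in co-culture on nanotopography and 50.7, 50.5 and 51.4 CPM in co-culture on control titanium. Isolated cells had 36.0, 49.2 and 48.4 CPM on nanotopography and 30.3, 29.0 and 34.6 CPM on control titanium. It rose by 0.70 ± 0.15 in co-culture on control titanium (SE, edgeR adjusted p = 0.00268), and on nanotopography its value was -0.02 before GC adjustment and 1.03 after it (edgeR adjusted p = 0.901 and 1.38e-06).

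Col2a1, Col11a1 and Col11a2 are best known from cartilage fibrils. All 3 were read in this osteoblast line, at group means of 155.6 to 439.7, 241.6 to 288.8 and 102.0 to 413.7 TPM, while Col9a1 and Col10a1 did not pass the filter. Of 8 cartilage cell markers Sox9 had group means of 180.8 to 288.1 CPM and Hapln1 of 230.3 to 391.2 CPM, and the other 6 were at 3.24 CPM or less, with Matn1 at 0 counts. The 3 that passed the filter were all called lower in co-culture on control titanium and 1 of them on nanotopography, where 8.76% and 30.4% of all genes were lower. The part of these markers in the values of these collagen genes was not tested. Col2a1 (chr15:97975602-98004695) had 359.6, 472.6 and 430.6 CPM in co-culture on nanotopography and 868.5, 991.8 and 1107 CPM in co-culture on control titanium. Isolated cells had 1333, 1321 and 1351 CPM on nanotopography and 1162, 1218 and 1187 CPM on control titanium. The 4 groups did not overlap. Between co-culture and isolated cells it fell by 1.67 ± 0.11 on nanotopography on the log2 scale (SE, edgeR adjusted p = 7.1e-09) and had -0.27 ± 0.11 on control titanium (edgeR adjusted p = 0.0984). GC-adjusted, both were called, at -0.49 and -0.20 (edgeR adjusted p = 2.57e-05 and 0.0478). Col11a2 (chr17:34039437-34066685) had 175.7, 215.5 and 224.5 CPM in co-culture on nanotopography and 406.4, 477.7 and 579.2 CPM in co-culture on control titanium. Isolated cells had 601.7, 740.0 and 650.0 CPM on nanotopography and 990.3, 953.8 and 735.4 CPM on control titanium. Co-culture lay below isolated cells on both surfaces without overlap, by 1.69 ± 0.15 and 0.87 ± 0.14 on the log2 scale (SE, edgeR adjusted p = 8.57e-08 and 0.000349), and GC-adjusted the values were -0.50 and -0.80 (edgeR adjusted p = 0.012 and 0.000791). Col11a1 ran from 784.1 to 1412 CPM over the 12 libraries and was not called until GC-adjusted, when it was lower in co-culture on both surfaces at -0.45 and -0.38 (edgeR adjusted p = 0.00925 and 0.0329).

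Col24a1 (chr3:145292472-145552011), a fibril-forming gene known in mice from developing bone, had a low level and a separate pattern. It had 41.6, 41.0 and 42.8 CPM in co-culture on nanotopography and 42.8, 49.6 and 55.2 CPM in co-culture on control titanium. Isolated cells had 68.1, 70.2 and 67.1 CPM on nanotopography and 118.3, 115.1 and 92.7 CPM on control titanium. Isolated cells on control titanium were highest, isolated cells on nanotopography intermediate and both co-cultures lowest. In co-culture it fell by 0.71 ± 0.12 on nanotopography and by 1.15 ± 0.12 on control titanium (SE, edgeR adjusted p = 7.72e-05 and 2.99e-06), and the GC-adjusted values of -0.68 and -1.22 stayed close to these (edgeR adjusted p = 2.15e-05 and 8.07e-09). The interaction of 0.44 ± 0.17 (SE, edgeR adjusted p = 0.0384) lost its call in 8 of the 12 fits that left out 1 library, with values of 0.35 to 0.54 and edgeR adjusted p up to 0.114. Its RefSeq promoter is shown because the call was kept under GC adjustment on both surfaces: the 150 bases before the start (chr3:145292322-145292471, plus strand, GRCm38.p6) were 63.33% GC and end in TGACGTC, the first letters of the cAMP response element consensus, in capitals.
Col24a1 promoter: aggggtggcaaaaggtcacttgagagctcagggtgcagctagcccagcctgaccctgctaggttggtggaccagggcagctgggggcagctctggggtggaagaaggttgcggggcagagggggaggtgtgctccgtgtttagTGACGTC
That motif was chosen after the sequence was seen. On either strand of the 250 bases before the start it stood in 3.16% of 27025 genes with a listed promoter and in 1 of the 35 collagen genes with one. CCAAT, also searched on both strands, stood in 37.49% of genes and in 13 of the 35 collagen genes. Of the remaining fibril-forming genes, Col3a1, the chain of type III collagen of pliable tissues, ran from 2338 to 3693 CPM and was lower in co-culture on nanotopography by 0.34 ± 0.10 on the log2 scale (SE, edgeR adjusted p = 0.00583, GC-adjusted -0.11). Col27a1 ran from 42.3 to 56.8 CPM and was not called before GC adjustment.

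**Figure D4:**
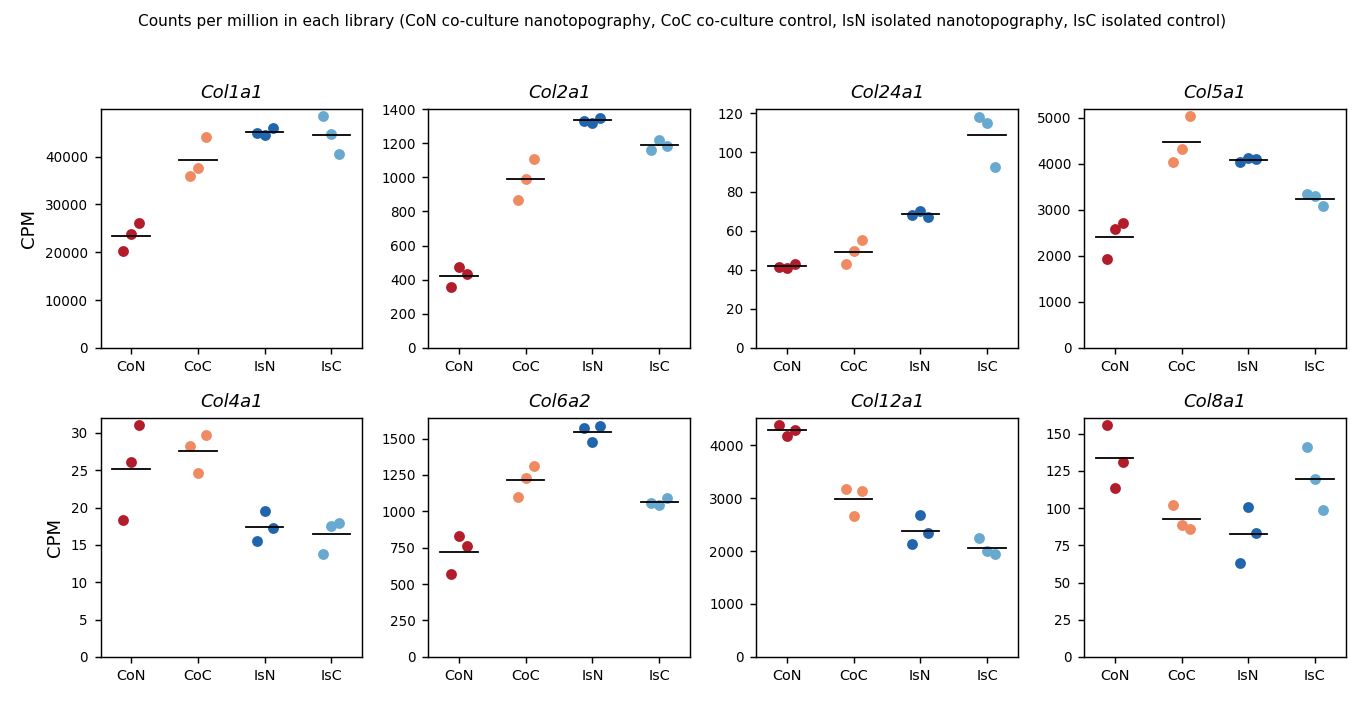
CPM in each library for 8 collagen genes, with co-culture on nanotopography (CoN), co-culture on control titanium (CoC), isolated cells on nanotopography (IsN) and isolated cells on control titanium (IsC) from left to right; points are libraries and lines group means. Col1a1 and Col2a1 are lowest in co-culture on nanotopography, Col12a1 is highest there, and Col24a1 is highest in isolated cells on control titanium.

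Type IV collagen forms the sheet of basement membranes, and its genes lie in head-to-head pairs. Col4a1 (chr8:11198423-11312826, minus strand) and Col4a2 (chr8:11312805-11449287, plus strand) start 21 bases apart, within an overlap of their annotations, so reads at their starts could not be assigned to either without strand, which the sources used here do not give. Of 4 tested members 3 rose in co-culture on control titanium, where 11.0% of all genes were higher, and 2 on nanotopography, where 28.7% were. All 4 were called higher on nanotopography when GC-adjusted, as were 18.9% of all genes. Col4a1 averaged 25.2 ± 6.4 CPM in co-culture and 17.4 ± 2.0 CPM in isolated cells on nanotopography, and 27.6 ± 2.6 CPM in co-culture and 16.4 ± 2.3 CPM in isolated cells on control titanium (SD, n = 3 each). Its log2 fold change was 0.53 ± 0.18 on nanotopography, where the groups overlapped, and 0.75 ± 0.17 on control titanium, where they did not (SE, edgeR adjusted p = 0.0167 and 0.00598). The value on nanotopography lost its call without co-culture nanotopography replicate 3 and without isolated nanotopography replicate 1, with edgeR adjusted p up to 0.101. Col4a2 had 35.4, 40.7 and 39.2 CPM in co-culture on nanotopography and 40.9, 44.1 and 46.2 CPM in co-culture on control titanium. Isolated cells had 31.4, 36.3 and 33.6 CPM on nanotopography and 27.0, 24.6 and 26.4 CPM on control titanium. It rose by 0.75 ± 0.11 in co-culture on control titanium (SE, edgeR adjusted p = 0.000186) and had 0.19 ± 0.11 on nanotopography, or 1.14 when GC-adjusted (edgeR adjusted p = 0.17 and 7.2e-08).

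Col4a5 and Col4a6 form a second head-to-head pair on the X chromosome, with starts 1309 bases apart, and they did not move alike. Col4a5 had 93.7, 95.1 and 102.6 CPM in co-culture on nanotopography and 106.2, 100.7 and 108.2 CPM in co-culture on control titanium. Isolated cells had 65.2, 73.8 and 67.7 CPM on nanotopography and 86.2, 80.6 and 78.9 CPM on control titanium. All 6 co-cultured libraries lay above all 6 isolated ones, and the log2 fold changes were 0.49 ± 0.10 on nanotopography and 0.36 ± 0.10 on control titanium (SE, edgeR adjusted p = 0.000314 and 0.0133), with GC-adjusted values of 0.58 and 0.28. The call on control titanium was lost without isolated control replicate 2 (edgeR adjusted p = 0.0647). Col4a6 had 41.6, 48.5 and 52.7 CPM in co-culture on nanotopography and 46.7, 49.1 and 51.0 CPM in co-culture on control titanium. Isolated cells had 49.6, 47.6 and 48.0 CPM on nanotopography and 50.1, 41.0 and 51.5 CPM on control titanium, and these overlapped. Its log2 fold changes of -0.02 ± 0.12 and 0.04 ± 0.12 were not called (SE, edgeR adjusted p = 0.872 and 0.832), though the difference between the responses of the 2 genes was not tested.

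Type VI collagen makes beaded microfilaments around cells, from the chains of Col6a1, Col6a2 and Col6a3. In co-culture on nanotopography Col6a1 and Col6a2 were lower than in isolated cells and Col6a3 was not called. Col6a2 (chr10:76595762-76623630) had 571.8, 832.5 and 762.3 CPM in co-culture on nanotopography and 1100, 1226 and 1313 CPM in co-culture on control titanium. Isolated cells had 1576, 1475 and 1590 CPM on nanotopography and 1059, 1046 and 1093 CPM on control titanium. It was highest in isolated cells on nanotopography and lowest in co-culture on the same surface, without overlap with any other group. On nanotopography it fell by 1.10 ± 0.12 in co-culture (SE, edgeR adjusted p = 1.01e-06), and GC-adjusted by 0.60 (edgeR adjusted p = 1.35e-06). Its interaction of -1.28 ± 0.17 kept its call at -0.71 after GC adjustment (SE, edgeR adjusted p = 6.13e-05 and 0.000134). Col6a1 had 1048, 1463 and 1328 CPM in co-culture on nanotopography and 1685, 1771 and 1927 CPM in co-culture on control titanium. Isolated cells had 2053, 1865 and 2105 CPM on nanotopography and 1418, 1409 and 1478 CPM on control titanium. Its group means ran in the same order as those of Col6a2, and it fell by 0.65 ± 0.11 in co-culture on nanotopography (SE, edgeR adjusted p = 0.000109), with 0.04 when GC-adjusted (edgeR adjusted p = 0.693). Col6a3 had 2022, 2357 and 2484 CPM in co-culture on nanotopography and 2468, 2296 and 2856 CPM in co-culture on control titanium. Isolated cells had 2135, 2333 and 2275 CPM on nanotopography and 2208, 2041 and 1971 CPM on control titanium. The ratio of Col6a1 to Col6a2 per exon length was 3.38 ± 0.093 in co-cultured cells on nanotopography, 2.82 ± 0.085 in co-cultured cells on control titanium, 2.47 ± 0.058 in isolated cells on nanotopography and 2.56 ± 0.013 in isolated cells on control titanium (SD, n = 3 each). By the longest transcripts it was 2.13 ± 0.059, 1.77 ± 0.054, 1.55 ± 0.036 and 1.61 ± 0.0080 in the same order (SD).

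Among the fibril-associated genes, Col12a1, whose product coats type I fibrils in dense connective tissue, rose in co-culture on both surfaces. It had 4390, 4177 and 4292 CPM in co-culture on nanotopography and 3178, 2654 and 3132 CPM in co-culture on control titanium. Isolated cells had 2133, 2676 and 2339 CPM on nanotopography and 2241, 2001 and 1944 CPM on control titanium. Co-culture on nanotopography stood above all other libraries. The log2 fold changes in co-culture were 0.85 ± 0.11 on nanotopography and 0.54 ± 0.11 on control titanium (SE, edgeR adjusted p = 4.77e-06 and 0.00198), and GC-adjusted they were 0.51 and 0.50 (edgeR adjusted p = 4.66e-06 and 1.06e-05). The difference between the surfaces, 0.31 ± 0.15, was not called (SE, edgeR adjusted p = 0.0965). The fibril-associated class took 4.43 ± 0.46% of collagen transcripts per exon length in co-cultured cells on nanotopography, 2.15 ± 0.22% in co-cultured cells on control titanium, 1.67 ± 0.20% in isolated cells on nanotopography and 1.49 ± 0.061% in isolated cells on control titanium (SD, n = 3 each). Col22a1, a gene of tissue junctions with few reads here, had 0.425, 0.381 and 1.06 CPM in co-culture on nanotopography and 2.37, 2.09 and 3.76 CPM in co-culture on control titanium. Isolated cells had 2.86, 2.64 and 2.04 CPM on nanotopography and 5.08, 5.00 and 4.20 CPM on control titanium. It fell by 2.02 ± 0.43 in co-culture on nanotopography (SE, edgeR adjusted p = 0.000647, GC-adjusted -1.93), and its -0.82 ± 0.29 on control titanium was called when GC-adjusted (SE, edgeR adjusted p = 0.0595, then 0.0229). Col16a1 had 153.9, 199.3 and 244.1 CPM in co-culture on nanotopography and 233.6, 243.6 and 302.6 CPM in co-culture on control titanium. Isolated cells had 277.2, 356.9 and 311.7 CPM on nanotopography and 299.4, 240.8 and 241.7 CPM on control titanium. Its fall of 0.66 ± 0.15 on nanotopography turned to a rise of 0.40 when GC-adjusted (SE, edgeR adjusted p = 0.00129 and 0.0285). Its interaction of -0.66 lost its call without co-culture control replicate 3 and without isolated control replicate 2 (edgeR adjusted p up to 0.0651).

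The hexagonal-network genes Col8a1 (chr16:57624258-57754737) and Col8a2 (chr4:126286793-126314330) are partner chains, and they moved in opposite directions in co-culture on nanotopography. Col8a1 had 155.9, 113.7 and 130.8 CPM in co-culture on nanotopography and 102.2, 88.8 and 86.1 CPM in co-culture on control titanium. Isolated cells had 62.9, 100.8 and 83.5 CPM on nanotopography and 141.2, 119.4 and 98.5 CPM on control titanium. In co-culture it was higher than in isolated cells on nanotopography, by 0.69 ± 0.16 on the log2 scale, and had -0.37 ± 0.16 on control titanium (SE, edgeR adjusted p = 0.00147 and 0.111). The interaction of 1.07 ± 0.23 was called before and, at 0.81, after GC adjustment (SE, edgeR adjusted p = 0.00137 and 0.00831). Col8a2 had 97.5, 133.8 and 130.4 CPM in co-culture on nanotopography and 206.2, 239.0 and 208.7 CPM in co-culture on control titanium. Isolated cells had 291.5, 246.2 and 278.6 CPM on nanotopography and 235.1, 247.1 and 244.7 CPM on control titanium. It fell by 1.17 ± 0.12 in co-culture on nanotopography (SE, edgeR adjusted p = 5.14e-07), and GC-adjusted by 0.26 (edgeR adjusted p = 0.0101). Its interaction of -1.02 ± 0.17 came to -0.09 after GC adjustment (SE, edgeR adjusted p = 0.000248 and 0.581).

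Col18a1, the multiplexin whose cleaved end is endostatin, rose in co-culture on control titanium. It had 59.7, 74.5 and 66.5 CPM in co-culture on nanotopography and 102.2, 104.3 and 101.2 CPM in co-culture on control titanium. Isolated cells had 75.3, 70.0 and 72.7 CPM on nanotopography and 53.6, 59.1 and 65.6 CPM on control titanium. The rise on control titanium was 0.79 ± 0.11 (SE, edgeR adjusted p = 6.63e-05, GC-adjusted 0.82), and on nanotopography -0.12 ± 0.11 was not called until GC-adjusted, at 0.90 (edgeR adjusted p = 0.359 and 1.83e-07). Col15a1, the other multiplexin, had 87.2, 107.4 and 97.6 CPM in co-culture on nanotopography and 135.4, 140.7 and 175.0 CPM in co-culture on control titanium. Isolated cells had 156.5, 151.9 and 143.8 CPM on nanotopography and 159.2, 150.5 and 144.9 CPM on control titanium. It fell by 0.63 ± 0.11 in co-culture on nanotopography, with -0.02 when GC-adjusted (SE, edgeR adjusted p = 0.000156 and 0.875). The anchoring-fibril gene Col7a1 and the transmembrane genes Col13a1 and Col17a1 were near the low-count filter. Col7a1 had 2.55, 4.32 and 4.10 CPM in co-culture on nanotopography and 2.91, 2.79 and 5.11 CPM in co-culture on control titanium, against 5.38, 8.07 and 5.43 CPM on nanotopography and 5.73, 3.37 and 1.85 CPM on control titanium in isolated cells. Col17a1, a hemidesmosome gene, had 2.55, 2.03 and 1.67 CPM in co-culture on nanotopography and 2.81, 3.21 and 2.11 CPM in co-culture on control titanium, against 3.19, 3.08 and 2.89 CPM on nanotopography and 2.73, 2.79 and 3.36 CPM on control titanium in isolated cells. Col13a1 had 0.708, 1.14 and 2.28 CPM in co-culture on nanotopography and 1.08, 0.976 and 1.35 CPM in co-culture on control titanium, against 0.673, 2.20 and 2.21 CPM on nanotopography and 1.82, 2.56 and 1.18 CPM on control titanium in isolated cells. Their smallest edgeR adjusted p over the 5 contrasts was 0.0553, for Col7a1 in co-culture on nanotopography at -0.79 ± 0.34 on the log2 scale (SE).

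**Figure D5:**
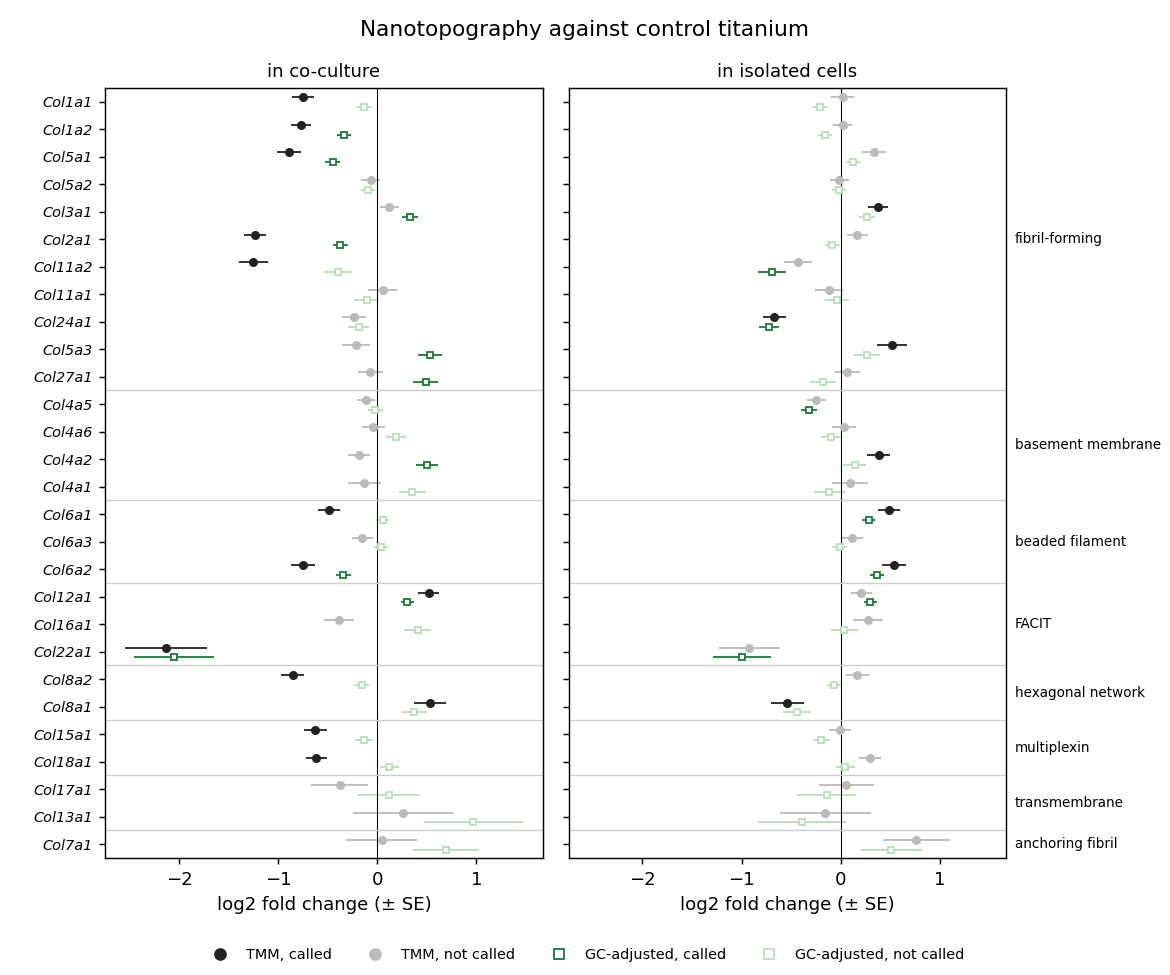
Log2 fold change of nanotopography over control titanium for each tested collagen gene, in co-culture (left) and in isolated cells (right), with SE bars and the same symbols as in the plot of co-culture effects. In co-culture Col2a1 and Col11a2 stand at -1.23 and -1.25, and Col12a1 and Col8a1 at 0.52 and 0.53.

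Genes that make, trim and bind collagen were counted from 5 lists. Of 18 tested genes of chain modification and folding, 6 were higher and 5 lower in co-culture on control titanium, and 3 were higher and 13 lower on nanotopography, or 7 and 7 when GC-adjusted. Of all genes 11.0% were higher and 8.76% lower on control titanium, and 28.7% higher and 30.4% lower on nanotopography, or 18.9% and 20.6% when GC-adjusted. Serpinh1, the collagen-specific chaperone HSP47, fell by 1.86 ± 0.13 in co-culture on nanotopography (SE, edgeR adjusted p = 1.27e-08) and by 1.08 when GC-adjusted (edgeR adjusted p = 3.52e-10). Plod2, which hydroxylates lysines of the chain ends, rose there by 1.41 ± 0.13 (SE, edgeR adjusted p = 2.21e-07, GC-adjusted 0.88). On control titanium the prolyl hydroxylase genes P3h2 and P4ha2 rose by 0.86 ± 0.10 and 0.68 ± 0.10 in co-culture (SE, edgeR adjusted p = 1.93e-05 and 0.000211). Fkbp14, a prolyl isomerase gene, fell there by 0.74 ± 0.09 (SE, edgeR adjusted p = 1.95e-05). Between surfaces in co-culture 13 of the 18 were lower, where 23.4% of all genes were, and GC-adjusted 4 were lower and 2 higher, where 17.7% of all genes were called. Plod1, a lysyl hydroxylase gene, fell by 0.92 ± 0.14 (SE, edgeR adjusted p = 0.000114, GC-adjusted -0.65). In isolated cells 2 were higher and 1 lower on nanotopography, where 10.1% of all genes were called.

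Secretion and processing had 11 tested genes, of which 1 was lower in co-culture on control titanium, and 1 was higher and 8 lower on nanotopography (1 and 6 when GC-adjusted), where 19.8%, 59.1% and 39.6% of all genes were called. Pcolce2, an enhancer of procollagen trimming, fell by 1.36 ± 0.14 in co-culture on nanotopography and by 0.83 ± 0.13 on control titanium (SE, edgeR adjusted p = 5.63e-07 and 0.000224), with GC-adjusted values of -1.64 and -0.84. Bmp1, the protease that removes the carboxyl end of procollagen, fell by 1.42 ± 0.12 on nanotopography (SE, edgeR adjusted p = 1.03e-07, GC-adjusted -0.78). Of 5 tested cross-linking genes, 2 were higher and 1 lower in co-culture on control titanium, and 1 was higher and 2 lower on nanotopography, or 2 and 3 when GC-adjusted. The calls of 3 of 5 on nanotopography stood near the 59.1% of all genes, while the shares of all genes called were 19.8% on control titanium and 39.6% when GC-adjusted. Loxl4 rose by 0.90 ± 0.11 on control titanium and by 0.32 ± 0.11 on nanotopography, and Loxl1, another lysyl oxidase gene, fell by 0.80 ± 0.20 and by 1.85 ± 0.21 on the same surfaces. The 4 edgeR adjusted p-values were 1.39e-05, 0.0145, 0.00882 and 1.57e-06 in that order, and all 4 calls were kept when GC-adjusted.

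Of 9 tested collagen receptor genes 3 were higher in co-culture on control titanium, and 4 were higher and 2 lower on nanotopography, or 4 higher when GC-adjusted. These shares were near those of all genes on nanotopography, 59.1% called and 39.6% when GC-adjusted, and on control titanium 19.8% of all genes were called. Itga11, a collagen-binding integrin subunit, rose by 0.54 ± 0.11 on control titanium (SE, edgeR adjusted p = 0.00274). The tyrosine kinase gene Ddr1 fell by 1.22 ± 0.17 on nanotopography and rose by 0.53 ± 0.16 on control titanium (SE, edgeR adjusted p = 1.47e-05 and 0.0305). GC-adjusted, the value on nanotopography was -0.23 and not called, and that on control titanium was 0.53 (edgeR adjusted p = 0.142 and 0.00107). The Ddr1 interaction of -1.75 ± 0.24 came to -0.77 when GC-adjusted (SE, edgeR adjusted p = 8.01e-05 and 0.00288). Among 5 tested genes of breakdown, 2 were higher on control titanium, and 2 were higher and 2 lower on nanotopography, or 3 higher when GC-adjusted, where 19.8%, 59.1% and 39.6% of all genes were called. This list shares Ctsk and Mmp9 with the osteoclast markers. Mmp14, the membrane protease that cuts pericellular collagen, rose by 0.40 ± 0.09 in co-culture on control titanium (SE, edgeR adjusted p = 0.00649). Mmp13, the collagenase of bone and cartilage, rose in co-culture by 3.26 ± 0.17 on nanotopography and by 1.90 ± 0.16 on control titanium (SE, edgeR adjusted p = 2.85e-10 and 3.7e-07). GC-adjusted, these values were 2.65 and 2.05 (edgeR adjusted p = 1.47e-11 and 5.56e-10). The difference between surfaces in its co-culture effect was 1.35 ± 0.22, and 0.60 when GC-adjusted (SE, edgeR adjusted p = 0.000256 and 0.0166).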

How the data were processed

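Each deposited table lists unnormalized gene counts of 1 library. The tools named, per the submitters' processing notes, are FastQC 0.63, cutadapt, HTSeq, STAR 2.4 and DESeq2, and the build is mm10; the annotation release and strand setting are not given in the sources used here. Per the labels' protocols, RNA was taken with TRIzol and libraries were made with SMARTer chemistry. The gene lists end at different genes, 11 within a line, so the 52654 genes complete in all 12 were used, with at least 99.924% of each library's counts, and 1621 genes present only in longer lists were dropped. Identifiers were matched without version to GENCODE M21 (GRCm38).

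Counts were tested in R 4.3.3 with edgeR 4.0.16: filterByExpr defaults, TMM, robust quasi-likelihood fits with 4 group means over all 12 libraries, and Benjamini-Hochberg adjustment over 13340 genes within each contrast, checked on simulated data. The common dispersion was 0.0151. CPM of collagen genes used TMM-scaled totals, while CPM of cell type markers and the limit for a count of 0 used unscaled totals. TPM divided counts by exon length. GC-adjusted values had each library's loess trend (span 0.3, log2 CPM with a prior count of 2) with GC content and transcript length entered as offsets. Such a trend cannot tell a technical difference from real changes that follow base composition. limma 3.58.1 and DESeq2 1.42.0 were alternatives. The series' design text calls the samples biological triplicates; with no culture named, p-values measure the spread between these libraries.

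The members, lists and GC adjustment were chosen with earlier results of these data known. Values in every library are given for tested members that are among the 3 highest by mean CPM in their class, are called with a log2 fold change of at least 1 in size, or are called in the interaction; other members are given by range, mean or call, and listed pathway genes are up to 3 called ones of smallest p, of which some are named. Limits for a count of 0 (3 counts) hold for counting error alone, because without molecular identifiers PCR copies of 1 molecule may be counted more than once.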

Additional observations from a re-analysis of the deposited data

Results flagged for a closer look

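These 15 collagen genes are given because the effect of co-culture differed between the surfaces by the test of the difference itself (log2 fold change on nanotopography minus that on control titanium, edgeR adjusted p below 0.05). A more negative effect on nanotopography was found for Col2a1 at -1.40, Col6a2 at -1.28, Col5a1 at -1.22, Col8a2 at -1.02, Col6a1 at -0.97, Col18a1 at -0.91, Col11a2 at -0.82, Col1a2 at -0.79, Col1a1 at -0.76, Col5a3 at -0.73, Col16a1 at -0.66, Col15a1 at -0.62 and Col4a2 at -0.57. A more positive effect was found for Col8a1 at 1.07 and Col24a1 at 0.44. The GC-adjusted fit kept Col6a2, Col5a1, Col8a1 and Col24a1 in the same direction. Among all genes it kept the direction of 1841 of the 6384 called before and called 100 in the opposite one. Across the 28 collagen genes the interaction had a Spearman correlation with GC content of -0.56, against -0.77 across all 13340 genes, which share libraries.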

How the results depend on the processing

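Collagen genes called ranged over the fits that left out 1 library from 8 to 11 for co-culture on control titanium, 16 to 18 for co-culture on nanotopography, 0 to 9 for the surface in isolated cells (12 to 14 at an unadjusted p below 0.05 by edgeR), 12 to 15 for the surface in co-culture and 13 to 16 for the interaction. For the surface in isolated cells, the calls over all genes ranged from 2 to 2912 in those fits. Shares of counts ranged from 5.871% to 6.637% in co-culture on nanotopography, 8.774% to 9.474% in co-culture on control titanium, 9.927% to 10.14% in isolated cells on nanotopography and 9.662% to 10.21% in isolated cells on control titanium. Without mitochondrial and rRNA-like genes in the denominator the mean shares were 7.09%, 10.1%, 11.4% and 11.4% in that order, against 6.16%, 9.197%, 10.01% and 9.88%. A fit of the groups compared alone called 4 collagen genes for the surface in isolated cells, against 7. RLE and upper-quartile scaling, both other filters, DESeq2, limma-voom and protein-coding genes alone kept every count of collagen genes called within 1.5 times and reversed no collagen call. Over all genes, the fit without a low-count filter called 2104 for the surface in isolated cells, against 1347.

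GC adjustment called 15 collagen genes for co-culture on control titanium, against 9, and 5 for the interaction, against 15. It turned these log2 values positive where the value before or after was called, the cause not being tested; other sign changes were between values not called. For co-culture on nanotopography they were Col16a1 0.40, Col18a1 0.90, Col27a1 0.74, Col4a6 0.26, Col5a3 1.03 and Col6a1 0.0365. For the surface in co-culture they were Col18a1 0.12, Col27a1 0.49, Col4a2 0.50, Col5a3 0.53 and Col6a1 0.0556. For the interaction they were Col11a2 0.30, Col15a1 0.0621, Col16a1 0.38, Col18a1 0.0775, Col1a1 0.0765, Col27a1 0.67, Col4a2 0.37 and Col5a3 0.27.

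Libraries with the same replicate number did not deviate together throughout: 6 of 18 such pairs had a correlation over 0.1, from -0.391 to 0.303, and other pairs ran from -0.429 to 0.401. Among replicate 1 of both co-cultures and of isolated cells on control titanium the correlations were 0.133 to 0.303. With replicate 1 of isolated cells on nanotopography these libraries had -0.279 to -0.118. With the replicate block 9, 17, 5, 14 and 14 collagen genes were called for co-culture on control titanium, co-culture on nanotopography, the surface in isolated cells, the surface in co-culture and the interaction. With the replicate block and GC adjustment together the interaction called 5, and by the same rule the reversed values were 0.41, 0.90, 0.74, 1.03 and 0.0361 for Col16a1, Col18a1, Col27a1, Col5a3 and Col6a1 in co-culture on nanotopography. They were 0.12, 0.49, 0.50, 0.53 and 0.0549 for Col18a1, Col27a1, Col4a2, Col5a3 and Col6a1 between surfaces in co-culture, and 0.30, 0.0588, 0.38, 0.0797, 0.0735, 0.66, 0.36 and 0.27 for Col11a2, Col15a1, Col16a1, Col18a1, Col1a1, Col27a1, Col4a2 and Col5a3 in the interaction.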
